A study of Homo sapiens with 4 samples.

Results

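The transcriptional coactivators YAP and TAZ, their DNA-binding partners of the TEAD family and a set of their target genes were followed through RNA-seq of MCF10AT cells. The set held 10 genes, all found by symbol among the 58233 genes of the deposited count table: YAP1, WWTR1 (which encodes TAZ), TEAD1, TEAD4, LATS2, AMOTL2, AJUBA, CCN1, CCN2 and ANKRD1. They were listed by name, as pathway components and targets, with earlier results of these data known, and not by a threshold on the counts. MCF10AT cells are MCF10A breast epithelial cells, of human origin, transformed with oncogenic HRAS. The 4 libraries were 2 labelled Bromo+/- and 2 labelled non-target control, and no label spells out Bromo further. All were grown in medium with donor horse serum, with EGF, insulin and hydrocortisone as growth factors and hormone, and with cholera toxin. The series is titled as a knockdown of EP300, which encodes the histone acetyltransferase p300. Its protocols describe lentiviral shRNA and puromycin, but the genotype labels of these libraries name no shRNA. No label says whether the libraries of a group came from separate cultures or clones, so p-values reflect only how far these samples scatter, which may be technical scatter, and a clone or preparation cannot be told apart from the group. The deposited column names carry a 2 in both Bromo+/- libraries and a 6 in both controls, beside the replicate number, and their meaning is not given in the sources used here.

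YAP and TAZ carry no DNA-binding domain of their own and reach promoters and enhancers by binding TEAD proteins. When the Hippo kinases are active, MST kinases (STK3, STK4) activate LATS kinases, which phosphorylate YAP and TAZ so that they are held in the cytoplasm or degraded. In mammary epithelial cells the pathway reads cell contact, polarity, matrix stiffness and actin tension, and it acts largely on the proteins, so that transcript levels of YAP1 and WWTR1 do not measure nuclear YAP or TAZ.

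The libraries held 10835237 to 11975396 counts and 13179 genes had enough counts to be tested. Levels are given as scaled CPM, the share of a gene in the counts of its library after scaling between libraries. Differences are log2 fold changes, Bromo+/- over control, with the standard error (SE) of the fitted model. A gene was called at an adjusted p under 0.05 in edgeR's quasi-likelihood test with Benjamini-Hochberg adjustment over all tested genes. The comparison was broad: 53.5% of all tested genes were called, 26.4% higher and 27.1% lower. EP300 itself was higher in the Bromo+/- libraries, at 124 ± 3.73 against 109 ± 3.16 CPM (SD, n = 2 each; log2 fold change 0.19, SE 0.06, adjusted p = 0.00701). It was not called by the DESeq2 Wald test or with control replicate 1 left out, and the adjusted p lay between 0.000105 and 0.144 over 11 alternatives. The labelled epithelial identity was read from 10 markers, whose summed level was 1329 to 1369 CPM in the Bromo+/- libraries and 9255 to 9479 CPM in the controls. All 10 were called lower in the Bromo+/- libraries, KRT14 (0 counts) and CDH1 (2.54 CPM) among them. In bulk RNA, fewer cells of a type and less RNA per cell cannot be told apart.

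Among the 10 genes, the coactivators and TEAD1 lay at similar levels in both groups, while the targets split. By the fitted model, CCN1 rose 2.22-fold, CCN2 7.21-fold and ANKRD1 146-fold. LATS2 and AMOTL2, which are targets and also act back on the pathway, fell to 0.836 and 0.775 times the control level. In all, 3 of the 10 were called higher, 4 lower (TEAD4, LATS2, AMOTL2 and AJUBA) and 3 were not called, against 26.4% higher and 27.1% lower over all tested genes. The groups did not overlap for 7 of the 10, against 75.2% of all tested genes, so neither count sets the 10 apart from the background. Of the 4 lower calls, those of TEAD4 and AMOTL2 held under all 11 alternative settings, while LATS2 lost its call in 5 of them and AJUBA in 7. At least 2-fold higher were 3 of the 10 (CCN1, CCN2 and ANKRD1), against 7.44% of all tested genes. The 10 were chosen with earlier results known, so this contrast was not tested. Their sizes spanned a wide range: the median log2 fold change was -0.05 and the mean 1.01, opposite in sign, beside a median of 0.01 over all tested genes. All 10 passed the filter on low counts, ANKRD1 only through the Bromo+/- libraries.

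**Figure D1:**
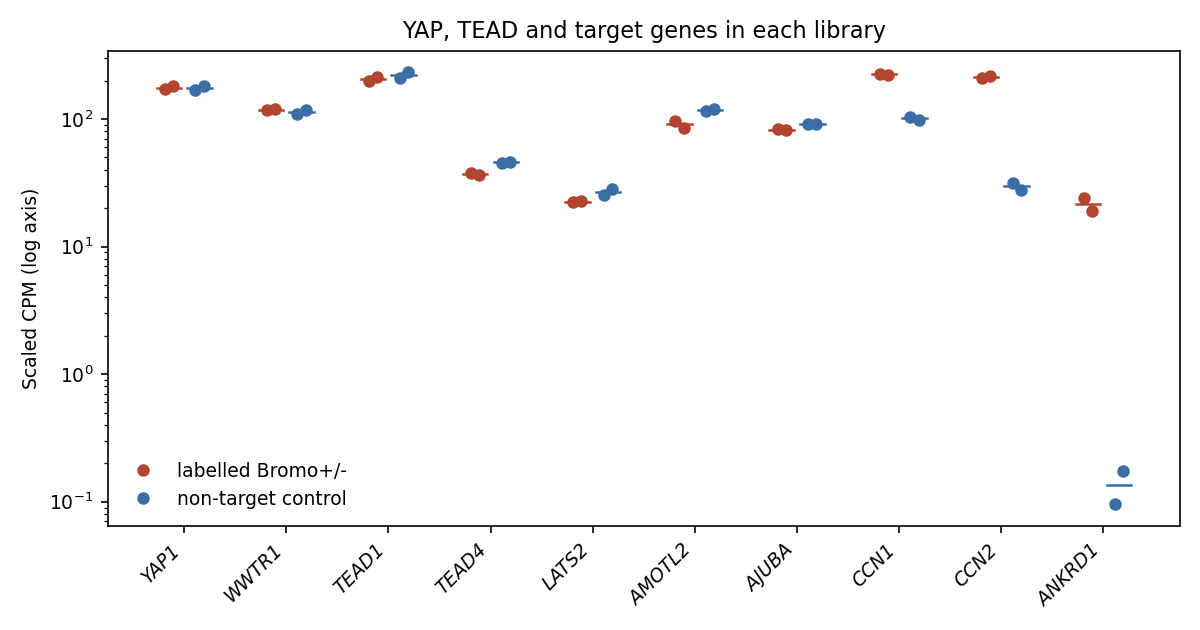
Scaled CPM of the 10 genes on a log axis, with 1 point per library (Bromo+/- left, controls right for each gene) and a bar at the mean of each group (n = 2). CCN1, CCN2 and ANKRD1 stand apart between the groups, ANKRD1 with 23.9 and 18.9 CPM against 0.0955 and 0.173 CPM, while the points of YAP1, WWTR1 and TEAD1 overlap.

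YAP1 lies on chromosome 11 (GRCh38, 102110461 to 102233423, plus strand). It had 172 and 180.3 CPM in the Bromo+/- libraries, against 169.9 and 180.3 CPM in the controls. The groups overlapped fully. The log2 fold change was 0.01 (SE 0.06, adjusted p = 0.918), with a 95% interval from -0.10 to 0.12, which corresponds to a ratio between 0.931 and 1.09.

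WWTR1 (chromosome 3, 149517235 to 149736714, minus strand) had 116 and 119 CPM in the Bromo+/- libraries, against 109 and 117 CPM in the controls. Again the ranges overlapped, and the log2 fold change of 0.05 (SE 0.06, adjusted p = 0.489) had a 95% interval from -0.07 to 0.18. Per length, in TPM, the share of a gene after division by the length of its merged exons, YAP1 transcripts outnumbered WWTR1 transcripts by a ratio of 1.97 and 2.03 in the Bromo+/- libraries and 2.08 and 2.05 in the controls. Both ratios of the Bromo+/- libraries were slightly below both of the controls, a difference that was not tested.

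The TEAD genes encode the DNA-binding partners in the complex. TEAD1 (chromosome 11, 12674591 to 12944483) had 198 and 213 CPM in the Bromo+/- libraries, against 208 and 232 CPM in the controls. The ranges overlapped, and the log2 fold change was -0.10 (SE 0.06, adjusted p = 0.114, 95% interval -0.21 to 0.01). It was called lower without Bromo+/- replicate 2 (adjusted p = 0.0157), within a range of 0.0157 to 0.879 over the alternatives.

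TEAD4 (chromosome 12, 2959330 to 3040673) had 37.7 and 36.4 CPM in the Bromo+/- libraries, against 45.5 and 46.3 CPM in the controls. Both Bromo+/- libraries were below both controls, and the log2 fold change was -0.31 (SE 0.08, adjusted p = 0.000635, edgeR). The call held under all 11 alternatives. TEAD2, a family member outside the 10, went the other way, with 31.3 and 30.6 CPM in the Bromo+/- libraries, against 23.4 and 22.7 CPM in the controls (log2 fold change 0.42, SE 0.10). Its exons overlap those of CD37 on the other strand, and the strand setting of the counting is not given in the sources used here. TEAD3 was not called (log2 fold change -0.06, 95% interval -0.23 to 0.11).

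Summed over the 4 TEAD genes, the level was 217 and 215 TPM in the Bromo+/- libraries, against 213 and 224 TPM in the controls, so the family total overlapped between the groups while its make-up moved. TEAD4 held 27.6% and 27.4% of the family total in the Bromo+/- libraries, against 32.4% and 32.1% in the controls. TEAD2 held 17.5% in both Bromo+/- libraries, against 12.7% and 12.01% in the controls. These shares rest on the merged exon length of each gene, which counts every annotated isoform.

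**Figure D2:**
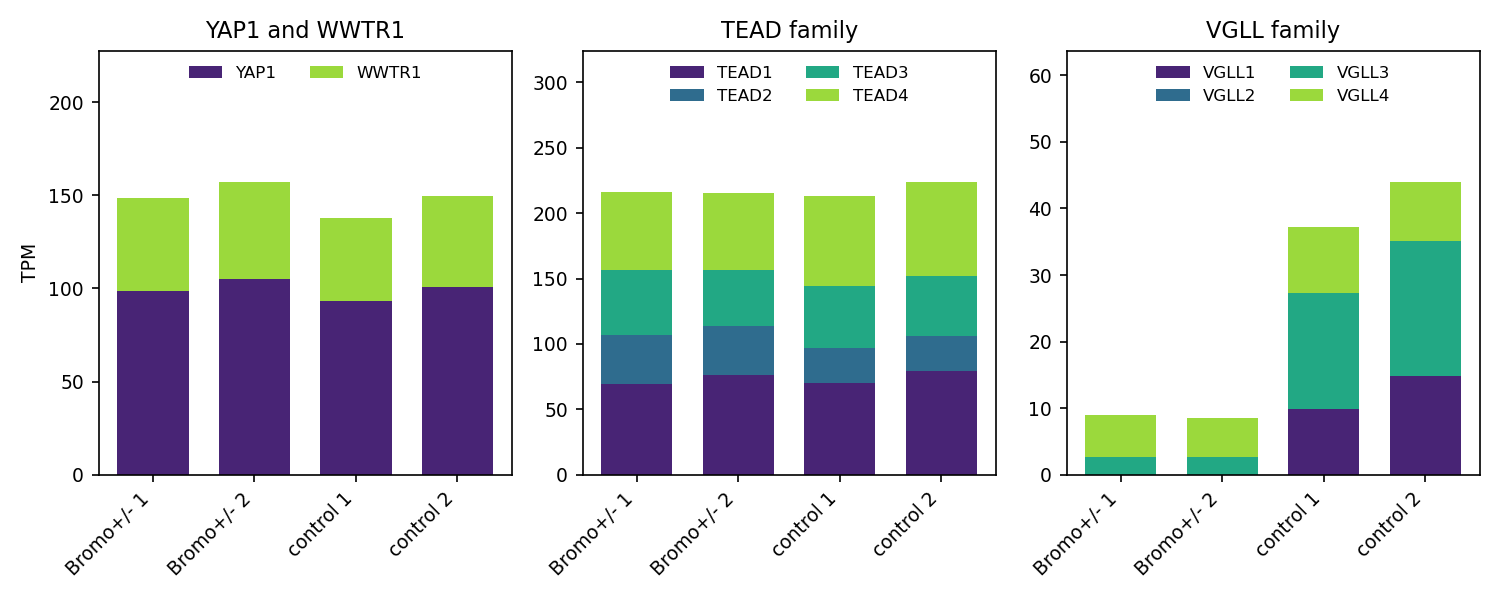
Stacked TPM of the coactivator genes (left), the TEAD genes (middle) and the VGLL genes (right) in each library, with the Bromo+/- libraries left of the controls. The summed level of the coactivators and of the TEAD genes is alike in height across libraries, whereas the VGLL sum is 9.0 and 8.59 TPM in the Bromo+/- libraries against 37.3 and 43.9 TPM in the controls.

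VGLL proteins, the vertebrate relatives of fly Vestigial, also bind TEADs, and VGLL4 competes there with YAP. Their fold changes were larger than those of the TEAD genes. VGLL1 had 0 counts in both Bromo+/- libraries and 46 and 75 counts in the controls, at least 43.1-fold lower when the empty group is set at 3 counts in all. VGLL3 had 9.29 and 9.04 CPM in the Bromo+/- libraries, against 64.0 and 73.2 CPM in the controls (log2 fold change -2.90, SE 0.12). VGLL4 had 12.8 and 11.8 CPM in the Bromo+/- libraries, against 21.0 and 18.2 CPM in the controls (log2 fold change -0.67, SE 0.12). The exons of VGLL4 and of ATG7 overlap by 1596 bases on opposite strands. Their reads cannot be fully told apart if counting ignored the strand, which is not stated. VGLL2 had no count in any library. Of the 5 tested TEAD and VGLL genes outside the 10, 1 was higher and 3 were lower, against 26.4% higher and 27.1% lower over all tested genes (median log2 fold change -0.67, the same with VGLL1 set at its bound, beside 0.01).

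CCN1, CCN2 and ANKRD1 are targets commonly used to read YAP and TEAD output. CCN1 (formerly CYR61) and CCN2 (formerly CTGF) encode secreted matricellular proteins that bind integrins and heparan sulfate, and ANKRD1 encodes an ankyrin-repeat protein found in the nucleus and, in striated muscle, in the sarcomere. All of them are also induced by other signals, among them TGF-beta for CCN2.

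CCN1 (chromosome 1, 85580761 to 85583962, plus strand) had 226 and 221 CPM in the Bromo+/- libraries, against 104 and 97.8 CPM in the controls. The groups lay clear of each other, at 2.22-fold higher (log2 fold change 1.15, SE 0.06, adjusted p = 1.2e-50, edgeR). Of all tested genes, 6.26% had a larger log2 fold change.

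CCN2 (chromosome 6, 131948176 to 131951373, minus strand) had 209 and 217 CPM in the Bromo+/- libraries, against 31.2 and 27.9 CPM in the controls. This was 7.21-fold higher (95% interval 6.49 to 8.0; log2 fold change 2.85, SE 0.08, adjusted p = 8.53e-109, edgeR), and 1.44% of tested genes had a larger log2 fold change. In TPM the CCN genes were level with each other in the Bromo+/- libraries, CCN1 standing at a ratio of 1.03 and 0.971 to CCN2, against 3.18 and 3.34 in the controls.

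ANKRD1 (chromosome 10, 90912096 to 90921276, minus strand) had 293 and 213 counts in the Bromo+/- libraries, against 1 and 2 counts in the controls. The ratio of the summed counts, scaled between libraries, was 158, with a 95% exact binomial interval of 53.7 to 768 that covers counting error only. The fitted model gave 146-fold. ANKRD1 passed the filter on low counts only through the Bromo+/- libraries, so its call (adjusted p = 1.07e-61, edgeR) is not separate support. At 43.5 and 35.0 TPM in the Bromo+/- libraries, ANKRD1 still lay below CCN1 and CCN2 there. The calls of these 3 genes held under all 11 alternatives.

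TEAD proteins recognise the element GGAATG, and the stretch before the CCN2 start is shown because it holds 3 copies of it (in capitals). Both strands were searched, that is GGAATG and its reverse complement CATTCC, in the 250 bases before each RefSeq gene start (RefSeq, GRCh38.p14). The CCN2 stretch is chr6:131951373-131951622, read 5′ to 3′ on the minus strand, and its last base adjoins the start:
CCN2: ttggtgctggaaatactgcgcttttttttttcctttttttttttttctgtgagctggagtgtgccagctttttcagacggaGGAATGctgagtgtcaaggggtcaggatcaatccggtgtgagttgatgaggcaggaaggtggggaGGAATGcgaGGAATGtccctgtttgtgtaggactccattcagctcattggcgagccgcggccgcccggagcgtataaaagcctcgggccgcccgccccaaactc

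The first G of the copies lies 169, 104 and 95 bases before the start. Of 35116 RefSeq promoter stretches of the same length, 11.9% held at least 1 match on either strand, 0.94% at least 2 and 0.0826% at least 3. ANKRD1 held 2 matches, 220 and 128 bases before its RefSeq start, within chr10:90921290-90921319 and chr10:90921198-90921227 on the minus strand. The deposited annotation starts ANKRD1 further upstream, at 90921276, so the second of these lies in its first exon there. AMOTL2, a target that fell, held 1 match in 1 of its 2 stretches, read as CATTCC (chr3:134374499-134374528, minus strand). That stretch belongs to a RefSeq start inside the deposited gene, which starts further upstream at 134375479, and the stretch before the upstream RefSeq start held no match. These sites are set side by side with the match in capitals:
ANKRD1 distal: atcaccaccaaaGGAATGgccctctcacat
ANKRD1 proximal: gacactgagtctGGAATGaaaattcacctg
AMOTL2: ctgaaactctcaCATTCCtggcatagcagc

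In all, 7 of the 10 genes were matched to a RefSeq promoter, with 10 stretches between them, and 5 genes (YAP1, AMOTL2, AJUBA, CCN2 and ANKRD1) held at least 1 match. Counted by stretch, 5 of the 10 held a match, against 11.9% of all promoter stretches, in a set chosen with earlier results known. The AJUBA match lies in a stretch inside the deposited gene (chr14:22976843-22977092), and its upstream stretch held none. WWTR1 and LATS2 held none in these windows. The WWTR1 stretches lie inside the deposited gene, which starts further upstream at 149736714, so the bases before that start were not searched. TEAD1, TEAD4 and CCN1 were not matched. TGANTCA, the AP-1 element often found near TEAD elements in enhancers, occurred in 1 of the 10 stretches, that of ANKRD1, against 6.57% of all promoter stretches. A match is a description of the letters, and binding was not measured here.

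LATS2, AMOTL2 and AJUBA encode proteins that act on YAP, TAZ or the LATS kinases, and not all in the same direction. LATS2 (chromosome 13, 20973032 to 21061547) encodes a kinase that phosphorylates YAP and TAZ and is itself a target gene. It had 22.2 and 22.6 CPM in the Bromo+/- libraries, against 25.1 and 28.3 CPM in the controls. The groups did not overlap, and the log2 fold change was -0.26 (SE 0.10, adjusted p = 0.0241, edgeR). That call ended under upper quartile scaling, library size alone, the DESeq2 Wald test (adjusted p = 0.193), without Bromo+/- replicate 1 and without control replicate 2, with adjusted p between 0.0202 and 0.329 over the alternatives. Its paralogue LATS1 was not called (log2 fold change -0.08, 95% interval -0.25 to 0.09), and LATS2 held 48.6% and 48.3% of the LATS total in TPM in the Bromo+/- libraries, against 50.5% and 52.6% in the controls.

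AMOTL2 (chromosome 3, 134355874 to 134375479) encodes an angiomotin-like scaffold of junctions and actin that binds YAP. It had 96.0 and 85.6 CPM in the Bromo+/- libraries, against 116 and 119 CPM in the controls. The groups did not overlap (log2 fold change -0.37, SE 0.06, adjusted p = 1.75e-07, edgeR), and the call held under all 11 alternatives. In its family AMOTL1 fell further, with 82.3 and 88.2 CPM in the Bromo+/- libraries, against 164 and 168 CPM in the controls (log2 fold change -0.96, SE 0.06). AMOT had 18 and 19 counts in the Bromo+/- libraries but 0 in both controls, which puts it at least 11.5-fold higher with the controls set at 3 counts in all. The family total was 87.9 and 85.5 TPM in the Bromo+/- libraries, against 123 and 129 TPM in the controls.

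AJUBA (chromosome 14, 22971174 to 22982642) encodes a LIM-domain protein of adherens junctions that binds and restrains LATS kinases. It had 82.7 and 81.8 CPM in the Bromo+/- libraries, against 91.7 and 91.3 CPM in the controls. The groups did not overlap but lay close (log2 fold change -0.15, SE 0.07, adjusted p = 0.0441, edgeR). The call ended in 7 of the 11 alternatives, among them each one that left out a library, with adjusted p between 0.0222 and 0.389 over all of them. Of its relatives, LIMD1 was not called (log2 fold change -0.05) and WTIP rose (0.66, SE 0.17), a call that ended without control replicate 2.

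**Figure D3:**
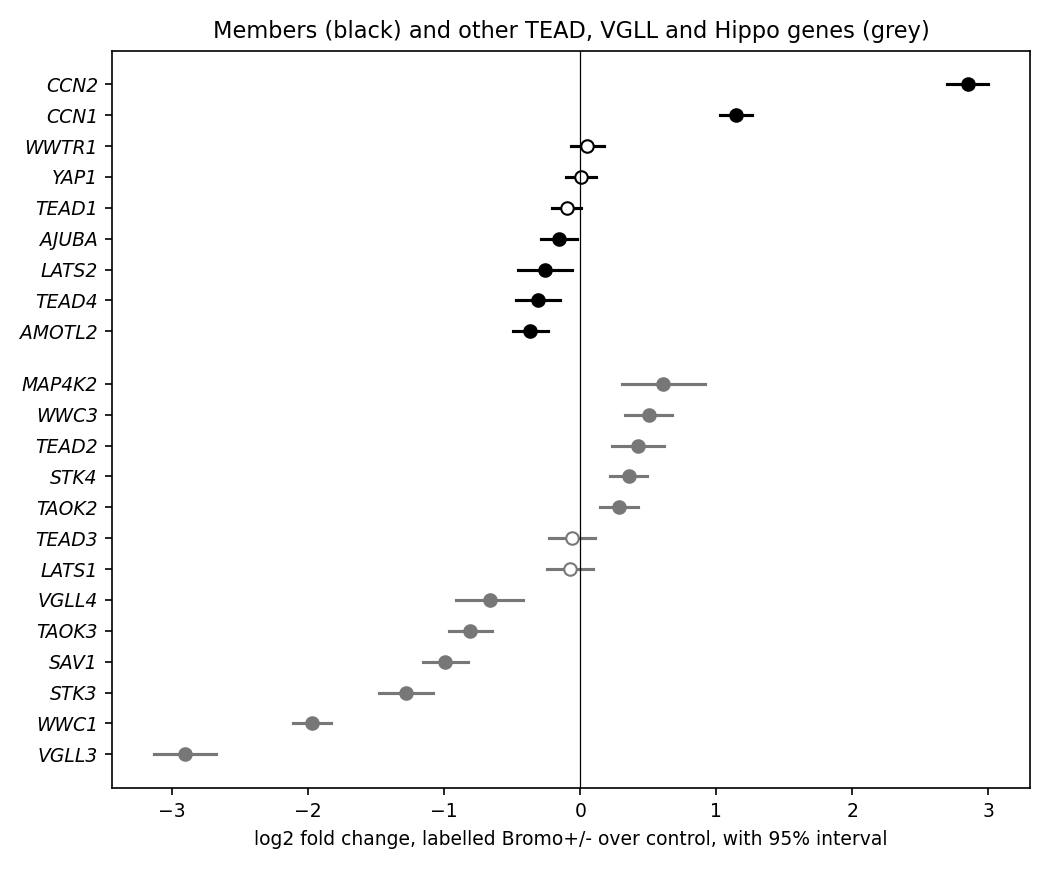
Log2 fold change of the Bromo+/- libraries over control with its 95% interval, for the genes of the set except ANKRD1 (black) and for named TEAD, VGLL and Hippo kinase genes with counts in both groups (grey). Filled points were called and open points were not: CCN2 at 2.85 and CCN1 at 1.15 are the black points farthest from 0, AMOTL2 (-0.37) is the lowest black point, and VGLL3 (-2.90), WWC1 (-1.97) and STK3 (-1.28) are the lowest grey points.

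Ordered by level, CCN2 and CCN1 (both 331 TPM) and then YAP1 (102 TPM) led in the Bromo+/- libraries, followed by TEAD1 (72.6), TEAD4 (59.3), AMOTL2 (55.1), WWTR1 (50.8), AJUBA (50.0), ANKRD1 (39.2) and LATS2 (14.6), as mean TPM. In the controls CCN1 (143 TPM) led, then YAP1 (97.0), TEAD1 (74.6), TEAD4 (70.5), AMOTL2 (68.3), AJUBA (53.4), WWTR1 (46.9), CCN2 (44.1), LATS2 (16.7) and ANKRD1 (0.237). Neighbours whose ranges overlapped in the Bromo+/- libraries were CCN1 and CCN2, and WWTR1 and AJUBA. In the controls TEAD1 overlapped TEAD4, TEAD4 overlapped AMOTL2, and WWTR1 overlapped CCN2. CCN2 stood at place 8 in the controls and 1 in the Bromo+/- libraries, and ANKRD1 at 10 and 9. No gene but CCN2 gained or lost more than 2 places.

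Other known YAP and TAZ targets included rises and falls. Of 26 tested, 12 rose, 9 fell and 5 were not called, against 26.4% higher and 27.1% lower over all tested genes, with a median log2 fold change of 0.15 beside 0.01. The rises with the smallest p included FSTL1, a secreted glycoprotein (214 ± 7.35 against 68.7 ± 0.851 CPM; log2 fold change 1.64), IGFBP3, a binding protein of insulin-like growth factors (61.8 ± 1.65 against 17.1 ± 1.24 CPM; 1.85), and TGFB1I1, a focal adhesion protein (28.2 ± 2.48 against 3.74 ± 0.520 CPM; 2.92), each with the Bromo+/- libraries first (SD, n = 2 each). The falls with the smallest p included THBS1, which encodes the matrix protein thrombospondin (2896 ± 31.1 against 5564 ± 96.2 CPM; log2 fold change -0.94), ARHGAP29, a GTPase-activating protein of RHOA (-0.84), AREG, an EGF-family ligand (-0.70), and MYOF, a membrane repair protein (-0.63). IGFBP3, TGFB1I1 and THBS1 are also known as targets of other pathways, TGF-beta among them.

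The kinase cascade above YAP held genes of both directions. Of 22 tested Hippo kinases and adaptors, 12 fell, 7 rose and 3 were not called, against 26.4% higher and 27.1% lower over all tested genes, with a median log2 fold change of -0.26 beside 0.01. The MST kinases went opposite ways: STK3 (MST2) had 15.4 and 20.6 CPM in the Bromo+/- libraries, against 41.5 and 45.2 CPM in the controls (log2 fold change -1.28, SE 0.10). STK4 (MST1) had 88.5 and 90.5 CPM there, against 70.2 and 69.5 CPM in the controls (0.36, SE 0.07). SAV1, their scaffold, had 28.8 and 28.1 CPM in the Bromo+/- libraries, against 57.2 and 55.9 CPM in the controls (-0.99, SE 0.08).

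WWC1 (KIBRA), which brings LATS kinases to the membrane, had the largest fall of the list, at 44.7 and 41.8 CPM in the Bromo+/- libraries, against 163 and 176 CPM in the controls (log2 fold change -1.97, SE 0.07). Its relative WWC3 rose (0.50, SE 0.09). TAOK3, an upstream kinase, fell (-0.81), and TAOK2 (0.28) and MAP4K2 (0.61) rose. NF2 (merlin), a membrane-linked activator of LATS kinases that was chosen after its value was seen, fell by 0.40 on the log2 scale. SAV1 shares exon bases with ATL1 on the other strand.

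Among 20 tested proteins that bind LATS, YAP or TAZ, 10 fell, 3 rose and 7 were not called, against 26.4% higher and 27.1% lower over all tested genes (median log2 fold change -0.13 beside 0.01). SFN and YWHAH, of the family of phosphoserine-binding adaptors that retain phosphorylated YAP, fell by 2.44 and 0.63 on the log2 scale. They had the largest falls of that family. YWHAZ (-0.55), YWHAE (-0.20) and YWHAQ (-0.20) fell less, and YWHAB (0.06) and YWHAG (-0.03) were not called. These further members were named after their values were seen. CSNK1D, a casein kinase that marks YAP for degradation, rose (0.19), but lost its call under the DESeq2 Wald test and with control replicate 1 left out, and its exons overlap SLC16A3. PTPN14, a phosphatase that binds YAP, and a target as well, was not called (0.02, 95% interval -0.11 to 0.14) and was chosen after its value was seen.

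Cell-surface and polarity inputs included large differences in both directions. Of 18 tested, 12 fell, 3 rose and 3 were not called, against 26.4% higher and 27.1% lower over all tested genes, with a median log2 fold change of -0.36 beside 0.01. E-cadherin (CDH1), the contact receptor linked to Hippo signalling, had 2.61 and 2.48 CPM in the Bromo+/- libraries, against 405 and 416 CPM in the controls. The polarity genes LLGL2 (-3.90) and PATJ (-1.87) and the atypical cadherin FAT2 (-5.29) fell as well. Its relative FAT4 rose, with 41.9 and 43.3 CPM in the Bromo+/- libraries, against 2.58 and 2.59 CPM in the controls (4.04, SE 0.20). S1PR3, a receptor for sphingosine 1-phosphate, a serum lipid known to activate YAP, rose to 306 and 286 CPM in the Bromo+/- libraries, against 35.5 and 31.8 CPM in the controls (3.14, SE 0.07), though it shares exon bases with an unnamed gene on its strand. Of the other lipid receptors in the list, LPAR2 fell (-1.95), S1PR2 was not called (-0.04), and LPAR1 and LPAR3 were under the filter. These receptors were named after their values were seen. LLGL1 rose by 0.35, with exons that overlap FLII.

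**Figure D4:**
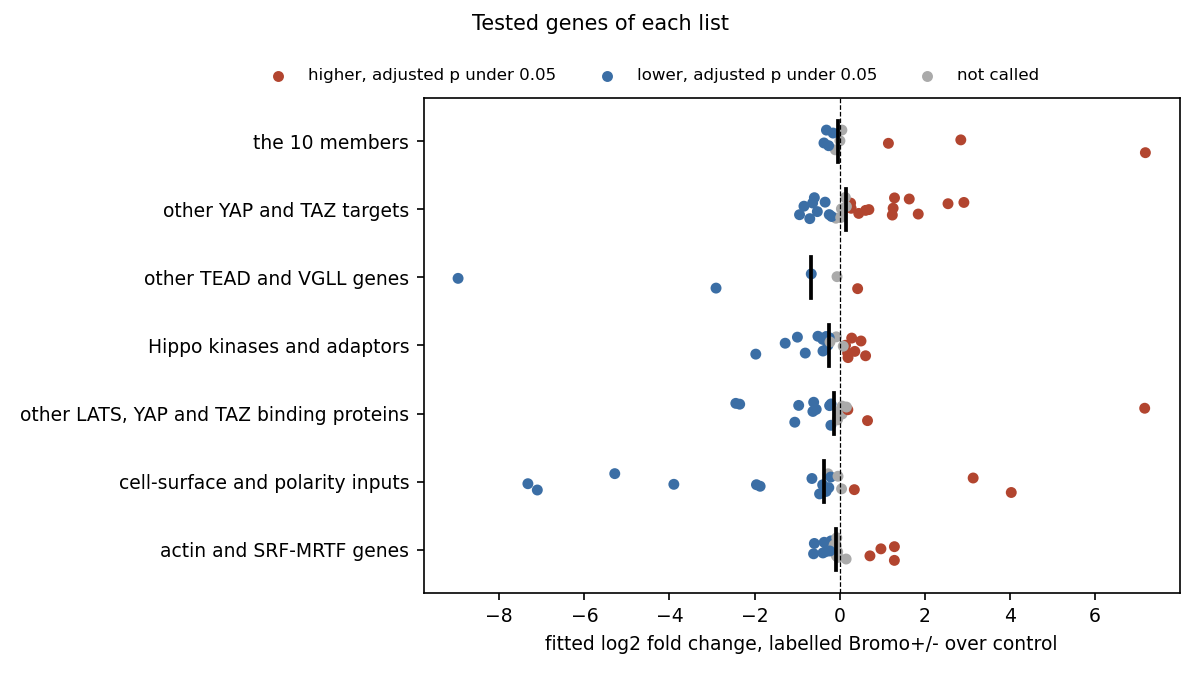
Fitted log2 fold changes of the tested genes of each list, with a thick bar at the list's median and a dashed line at the median of all tested genes (0.01). Each of the 7 rows holds genes called higher and genes called lower, and the outermost points of VGLL1 and AMOT belong to genes with 0 counts in a group, whose fitted position depends on the prior count.

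Markers of other cell types were read beside these genes. Leukocyte markers summed to 7.66 and 6.73 CPM in the Bromo+/- libraries, against 25.7 and 25.6 CPM in the controls, and endothelial markers to 23.6 and 19.4 CPM in the Bromo+/- libraries, against 27.7 and 25.4 CPM in the controls. Of the 4 tested endothelial markers, ROBO4 was lower (log2 fold change -1.57), EGFL7 (0.62) and KDR (1.40) were higher, and 1 was not called. Over all tested genes, 26.4% were called higher and 27.1% lower. EGFL7 lost its call without Bromo+/- replicate 1, and KDR under the DESeq2 Wald test, without Bromo+/- replicate 2 and without control replicate 2. CD3E, VWF, LUM and COL3A1 had no count in any library. Fibroblast markers summed to 88.7 and 86.5 CPM in the Bromo+/- libraries, against 4.49 and 3.72 CPM in the controls, nearly all of it DCN (79.1 against 0.728 CPM), with COL1A1 at 7.46 against 2.88 CPM and the other 6 markers under the filter. DCN was higher and the epithelial markers were lower in the libraries where CCN1, CCN2 and ANKRD1 were higher. The part of either in the differences of these 3 genes was not tested.

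The 3 tested genes whose 4 centred log2 CPM values lay closest to those of CCN2 were PCDH9 (Euclidean distance 0.0576, log2 fold change 2.90), MXD4 (0.0997, 2.93) and KCNMA1 (0.126, 2.81). For TEAD1 they were SLC25A36 (0.0108), VTA1 (0.0152) and ESCO2 (0.0223). With 4 libraries in 2 groups such likeness says little: 74 genes lay within a distance of 0.5 of CCN2 and 8111 within the same distance of TEAD1.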

How the data were processed

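The deposited table holds unnormalized read counts for 58233 Ensembl genes. STAR (alignment to GRCh38) and featureCounts 1.5.2 (counting) are named in the submitters' processing notes. Annotation release, strandedness in counting and handling of multi-mapping reads are not stated there. The columns whose names begin with WT were taken as the non-target controls, since Br in the remaining column names stands for Bromo. Symbols came from a table of current names (57392 identifiers) and GENCODE release 29 (503). Coordinates are those of the deposited table unless RefSeq is named.

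The analysis used edgeR 4.0.16 in R 4.3.3, with filterByExpr, TMM scaling (factors 0.968 to 1.03) and a robust quasi-likelihood fit that left 2 residual degrees of freedom. DESeq2 1.42.0 was an alternative. SEs and 95% intervals come from the fitted model. TPM were computed from the deposited counts and exon lengths. A floor of 3 counts equals 0.245 to 0.287 CPM per library and covers counting error only. The procedure was also run on simulated data in which few genes changed. That setting does not test scaling where differences are as broad as here. Replicates correlated at 0.995 (Pearson's r across genes, on log2 CPM) and differed by more than sampling noise (chi-square per degree of freedom 2.44 and 1.56).

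The 10 genes and the lists were chosen with earlier results of these data known, so no list was tested as a set. Genes named beyond the 10 are EP300, direct family members, and from each list up to 4 higher and 4 lower with the smallest p, with exceptions stated; a few genes that this rule names are not reported here. A list gene whose exons overlap another gene is noted for the main cases only, and Hippo regulators not named were counted only.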

Additional observations from a re-analysis of the deposited data

How the results depend on the processing

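Each result was recomputed under 3 other scalings (DESeq2 size factors, upper quartile, plain library size), without a filter, with a stricter filter, by the DESeq2 Wald test, with the replicate number as a block, and without each library in turn. Of the 10 genes, 6 kept direction and call in all 11 alternatives (WWTR1, TEAD4, AMOTL2, CCN1, CCN2 and ANKRD1), as did 48 of 57 other named genes. The number of the 10 called stayed between 5 and 7, with 3 higher each time, and leaving out 1 library gave 5 to 7. Over all genes, 5584 to 6577 were called with 1 library left out, 4884 by the DESeq2 Wald test and 7055 in the main test. Library size alone gave 4433 higher and 2794 lower calls, against 3485 and 3570. Signs turned only for genes that were not called: YAP1 without the filter (-0.0026), without Bromo+/- replicate 2 (-0.026) and without control replicate 1 (-0.033), in a left-out range of -0.033 to 0.052, TEAD3 with library size alone (0.023) and without Bromo+/- replicate 2 (0.055), in a left-out range of -0.19 to 0.055, and LATS1 with library size alone (0.0065). The cause was not tested. CD14 lost its call under the DESeq2 Wald test and with at least 1 library left out. The labels do not say whether same-numbered libraries share anything. Their deviations from the group means correlated at 0.0484 across genes, and with the replicate block 7 of the 10 and 7271 genes in all were called. On the log2 scale, the 95% intervals were -0.10 to 0.12 for YAP1, -0.07 to 0.18 for WWTR1 and -0.21 to 0.01 for TEAD1. They hold for the main scaling and reflect only the scatter of these libraries, which may be technical. With library size alone the estimates were 0.09 (YAP1), 0.14 (WWTR1) and -0.02 (TEAD1). A difference between the groups is therefore not bounded by these intervals.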

Other observations

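Genes of the actin cytoskeleton and of SRF and its MRTF coactivators, a programme that shares targets such as CCN1 with YAP and TEAD, were read as a further list. Of 19 tested, 7 fell, 4 rose and 8 were not called, against 26.4% higher and 27.1% lower over all tested genes, with a median log2 fold change of -0.08 and a mean of 0.06, opposite in sign, beside a median of 0.01. The rises were TPM2, a tropomyosin (373 ± 20.1 CPM in the Bromo+/- libraries, against 228 ± 6.24 CPM in the controls, SD, n = 2 each; log2 fold change 0.71, SE 0.05), FLNA, the filamin crosslinker (0.97, SE 0.08), ACTA2, smooth muscle actin (1.29, SE 0.20, exons shared with FAS on the other strand), and MYL9, a myosin light chain at low counts (1.29, SE 0.40). For MYL9 the log2 fold change lay between 0.77 and 2.01 over the 11 alternatives, and the call ended under the DESeq2 Wald test and without control replicate 2 (adjusted p up to 0.145). Falls with the smallest p were in the actinins ACTN4 (-0.61) and ACTN1 (-0.36), the calponin CNN2 (-0.59) and beta-actin, ACTB (-0.32). SRF (-0.13, adjusted p = 0.145, edgeR) and MRTFA (0.15, adjusted p = 0.0916, edgeR) were not called, and both were chosen after their values were seen.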
